A study of Mus musculus with 26 samples.

Results

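The 10 genes described here are Egr1, Egr2 and Egr3, their corepressors Nab1 and Nab2, the orphan nuclear receptor genes Nr4a1, Nr4a2 and Nr4a3, and the immediate early response genes Ier2 and Ier3. They were chosen by symbol as EGR and NR4A immediate early genes and their partners, with earlier results of these data known. All 10 had an identifier among the 54146 genes of the count files. The 6 libraries came from cultured mouse cells that model myeloid leukemia, made when lineage-negative bone marrow cells were transduced with a retrovirus for the fusion oncogene MLL-AF9 (MA9). Cells of the MA9+SETDB1 arm also received SETDB1, an enzyme that methylates histone H3 at lysine 9, and those of the MA9+EV arm the empty MSCV puromycin vector. Both arms therefore carried MLL-AF9 and a puromycin-selected vector, and both were cultured for 8 to 12 weeks in medium holding SCF and IL-3, with selection for 3 to 6 of those weeks. Each arm had 3 RNA-seq libraries, and no label says whether these came from separate transductions.

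Immediate early genes are transcribed within minutes of a stimulus, such as a cytokine or serum, without new protein synthesis. Signals through ERK and cyclic AMP act on SRF with its ELK partners and on CREB at their promoters. EGR proteins are zinc finger activators that bind GC-rich sites, and NAB1 and NAB2 bind EGR proteins and hold them back, with Nab2 itself a known EGR target. NR4A proteins are nuclear receptors that act without a known natural ligand. In blood, Egr1 and Egr2 are known for macrophage differentiation and NR4A genes for restraining myeloid leukemia.

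RefSeq promoter windows (GRCm38.p6, 250 bases before to 50 after a transcription start) were searched for 7 of the 10 genes. They number 11, since Egr2 has 5 listed starts. No window was used for Egr1, Egr3 or Ier2, so their promoters were not searched. The windows are shown because known upstream factors of these genes bind short motifs. Whether the motifs bear on the differences between the arms was not tested. Searched on both strands were the CArG box (bound by SRF), the cyclic AMP response element TGACGTCA and its core TGACG (which is part of the former), the EGR site in the forms GCGTGGGCG and GCGGGGGCG, and AAAGGTCA, the element bound by NR4A monomers. The stretches below are in the sense of the gene, and capitals mark matches on either strand. Stretches of 30 bases around some of the matches are given.
Egr2, upstream of the fifth start, chr10:67537793-67537822 (+): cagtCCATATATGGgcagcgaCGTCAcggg
Egr2, upstream of the second start, chr10:67537484-67537513 (+): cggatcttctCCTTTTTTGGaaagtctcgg
Nab1, chr1:52500564-52500593 (-): cggcCGCCCACGCcgggatctgCGTCActc
Nab1, chr1:52500467-52500496 (-): gcggggcgggGCGGGGGCGgcggaggtggc
Nr4a1, chr15:101266610-101266639 (+): ctgCGTCAatggaaccccgcgtgCGTCAcg
Nr4a1, chr15:101266776-101266805 (+): gCGTCAgtggCGCCCCCGCccctctccatg
Nr4a2, chr2:57124104-57124133 (-): gccgggcTGACGgggccgcTGACGcgcttg
Nr4a3, chr4:48045089-48045118 (+): tgtCGTCAcatTGACGtctcgcattccagg

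A CArG box was found for Egr2 alone among the 7 genes with a window, in 4 of its 5 windows. These windows hold 2 distinct boxes, since 3 of them overlap and share 1 box, and 1.63% of all 32851 promoter windows hold such a box. The core TGACG occurred 4 times each in the windows of Nr4a1, Nr4a2 and Nr4a3. It also occurred 2 times in each of the 3 overlapping Egr2 windows and 1 time in that of Nab1. Of all windows, 20.8% hold it at least 1 time, and the share holding it 4 times was not computed. The Nab1 window held 2 matches to GCGTGGGCG, found in 0.612% of all windows, and 1 to GCGGGGGCG, found in 2.91%. Nr4a1 also had 1 match to GCGGGGGCG. The full element TGACGTCA (1.79% of all windows) and AAAGGTCA (1.51%) were in no window of the 7 genes, and the windows of Nab2 and Ier3 held none of the motifs. The windows of Nab1 and Nr4a2 are 81.7% G and C, against a median of 52.7% over all windows, which bears on how often GC-rich letters match. The starts used for Egr2, Nab1, Nr4a1 and Nr4a3 lie inside their RefSeq genes, whose first bases are further upstream.

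**Figure D1:**
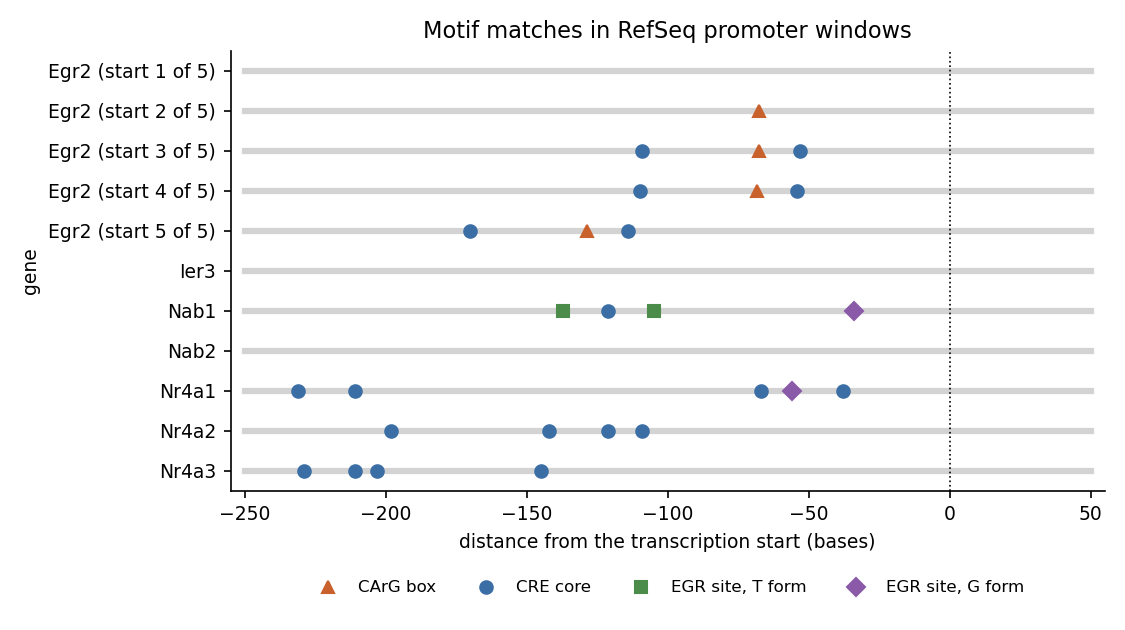
Motif matches in the 11 RefSeq promoter windows of 7 genes, by distance in bases from the transcription start (dotted line), each grey bar being 1 window. Egr1, Egr3 and Ier2 were not searched. CArG boxes appear for Egr2 alone, CRE cores (the shorter cyclic AMP motif) in Egr2, Nab1 and all 3 NR4A genes, and EGR sites in Nab1 and Nr4a1.

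Each library held 18070482 to 22561757 reads counted in genes, and between 18120 and 18629 genes had at least 1 count. Setdb1 stood at 105 to 109 CPM (reads per 1000000 of the scaled library size) in MA9+EV and at 475 to 607 CPM in MA9+SETDB1, so every library went with its label. Replicates 2 and 3 of each arm lay close together, with a root mean square log2 difference of 0.126 in MA9+EV and 0.125 in MA9+SETDB1 over 9041 genes, whereas replicate 1 lay 0.495 to 0.591 from the others of its arm. The counts of replicates 2 and 3 still differed by more than sampling noise (chi-square per degree of freedom 4.29 and 3.14). They were kept as separate samples, though this check cannot tell separate cultures from separate library preparations of the same culture. Of 12986 genes tested, 27.4% were called higher in MA9+SETDB1 and 26.2% lower, at an adjusted p under 0.05 in edgeR's quasi-likelihood test with Benjamini-Hochberg adjustment. Differences below are read against these shares.

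Of the 10 genes, 8 rose in MA9+SETDB1, 1 (Nr4a2) did not pass the test and 1 (Nr4a3) had too few counts to be tested. Among all tested genes 27.4% rose. The 8 genes were Egr1, Egr2, Egr3, Nab1, Nab2, Nr4a1, Ier2 and Ier3, and each of them also had all 3 MA9+SETDB1 libraries above all 3 MA9+EV libraries, as did 32.1% of all tested genes, while none had MA9+EV entirely above, as 32.5% of all tested genes did. None was lower by edgeR, none at an unadjusted p under 0.05 and none by DESeq2. The median log2 fold change of the 9 tested genes was 3.00, beside -0.01 over all tested genes. In these bulk samples, more cells with a transcript and more of it per cell cannot be told apart. Levels are not compared between genes, since transcript lengths were not used here.

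**Figure D2:**
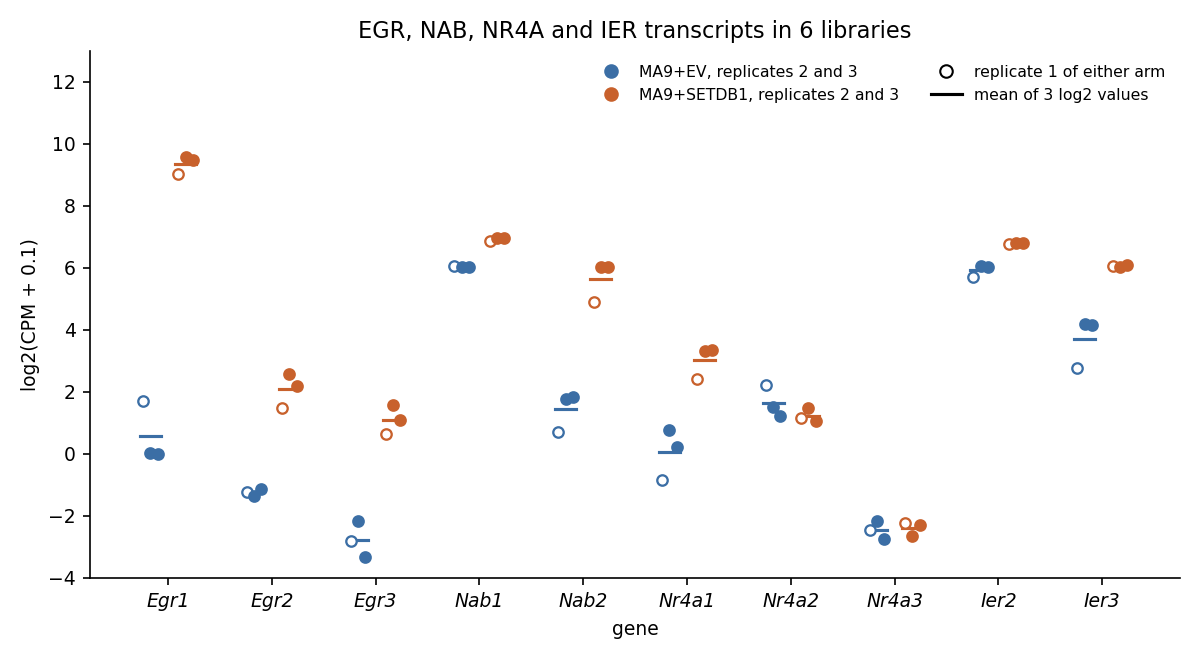
Level of each of the 10 genes in the 6 libraries, as log2(CPM + 0.1), with open circles for replicate 1, filled circles for replicates 2 and 3, and bars at the mean of the 3 log2 values of an arm. The arms are apart for 8 genes, furthest for Egr1, and overlap for Nr4a2 and Nr4a3.

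Egr1 (ENSMUSG00000038418.7, chromosome 18, 34861207 to 34864956), the best known gene of the family, was close to silent in MA9+EV and abundant in MA9+SETDB1. It stood at 3.14, 0.913 and 0.907 CPM in MA9+EV replicates 1, 2 and 3 and at 525, 769 and 706 CPM in MA9+SETDB1 replicates 1, 2 and 3. Every MA9+SETDB1 library was thus far above every MA9+EV library, and replicate 1 was the highest of its arm in MA9+EV and the lowest in MA9+SETDB1. The ratio of the means was 403 and the fitted difference log2 8.63 (SE 0.56, 95% interval 7.29 to 9.97, edgeR adjusted p = 4.47e-05). Without MA9+EV replicate 1, the highest library of that arm, the difference was log2 9.50 (adjusted p = 2.48e-05 by edgeR). Its absolute log2 fold change in the full fit was larger than that of 96.7% of the tested genes.

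Egr2 (ENSMUSG00000037868.15, chromosome 10, 67534469 to 67542188), also known for its role in myelinating cells, moved the same way at much lower counts. It reached 0.33, 0.29 and 0.353 CPM in MA9+EV and 2.69, 5.84 and 4.47 CPM in MA9+SETDB1, from 7 or 8 reads and from 48 to 96 reads per library. The arms did not overlap, and the MA9+EV values differed little among themselves. By edgeR the difference was log2 3.72 (SE 0.40, adjusted p = 0.000384). The RefSeq lncRNA gene Gm32255 overlaps Egr2 by 1712 bases, but it had 2 counts in all 6 libraries together.

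Egr3 (ENSMUSG00000033730.4, chromosome 14, 70077317 to 70082613), which acts with Egr2 in lymphocyte tolerance, rested on the fewest reads of the tested genes of the set. The reads numbered 1, 3 and 0 in MA9+EV and 26, 47 and 39 in MA9+SETDB1, which is 1.45, 2.86 and 2.03 CPM in the latter arm. A count of 3 corresponds to 0.133 to 0.166 CPM in a library, so the MA9+EV level was at or under what these libraries resolve. By edgeR the difference was log2 5.04 (SE 0.68, 95% interval 3.42 to 6.66, adjusted p = 0.000974). Its size ranged from 4.57 to 6.19 over the alternative settings, the largest being without MA9+EV replicate 2, which held 3 of the 4 reads of that arm.

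Nab1 and Nab2 encode the corepressors of EGR proteins, and both rose, Nab2 by far more. Nab1 (ENSMUSG00000002881.14, chromosome 1, 52455849 to 52500712) stood at 66.7, 64.6 and 64.4 CPM in MA9+EV and at 116, 126 and 125 CPM in MA9+SETDB1. It was thus well expressed in both arms and differed by a factor of 1.88, with little spread within either arm (log2 0.91, SE 0.09, adjusted p = 0.00022 by edgeR). Nab2 (ENSMUSG00000025402.12, chromosome 10, 127660918 to 127666703) stood at 1.53, 3.32 and 3.43 CPM in MA9+EV and at 29.4, 65.1 and 65.0 CPM in MA9+SETDB1. Replicate 1 was the lowest of each arm for Nab2, with a log2 ratio to the mean of replicates 2 and 3 of -1.14 in MA9+EV and -1.15 in MA9+SETDB1. Thus the ratio between the arms was nearly the same for each replicate number, at log2 4.27, 4.29 and 4.25. The fit gave log2 4.27 (SE 0.45, adjusted p = 0.000325 by edgeR). Nab2 overlaps Stat6, a cytokine-activated transcription factor gene, by 70 bases, and Stat6 stood at 170 to 181 CPM in MA9+EV and 203 to 206 CPM in MA9+SETDB1 (log2 0.21, SE 0.09, adjusted p = 0.084 by edgeR).

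The NR4A genes divided. Nr4a1 (ENSMUSG00000023034.7, chromosome 15, 101253902 to 101274795), which encodes NUR77, stood at 0.454, 1.62 and 1.06 CPM in MA9+EV and at 5.26, 9.80 and 10.1 CPM in MA9+SETDB1. The lowest MA9+SETDB1 library was still above the highest MA9+EV library, and replicate 1 was the lowest of each arm. By edgeR the difference was log2 3.00 (SE 0.51, 95% interval 1.79 to 4.21, adjusted p = 0.0026).

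Nr4a2 (ENSMUSG00000026826.13, chromosome 2, 57106830 to 57124003), which encodes NURR1, a factor of dopamine neurons, stood at 4.54, 2.78 and 2.22 CPM in MA9+EV and at 2.13, 2.68 and 1.97 CPM in MA9+SETDB1. The arms overlapped, the value of MA9+EV replicate 1 being apart from the other 5. By edgeR the difference was log2 -0.50 (SE 0.35, 95% interval -1.32 to 0.33, adjusted p = 0.267). LOC105244150, a protein-coding gene in RefSeq, overlaps Nr4a2 by 670 bases. Nr4a3 (ENSMUSG00000028341.9, chromosome 4, 48045078 to 48086447), which encodes NOR1, had 1 to 3 reads in every library of either arm and did not pass the low-count filter. Without that filter its log2 fold change was 0.08 (edgeR adjusted p = 0.947), and at this depth no difference was detectable.

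Ier2 and Ier3 are small immediate early genes, the former for a nuclear protein and the latter for a stress-induced regulator of survival also called IEX-1. Ier2 (ENSMUSG00000053560.4, chromosome 8, 84661331 to 84662852) stood at 51.7, 66.8 and 65.6 CPM in MA9+EV and at 109.9, 110.8 and 110.5 CPM in MA9+SETDB1. The MA9+SETDB1 libraries were almost equal and all above MA9+EV (log2 0.85, SE 0.12, adjusted p = 0.00127 by edgeR). Ier3 (ENSMUSG00000003541.6, chromosome 17, 35821713 to 35822911) stood at 6.69, 18.1 and 17.8 CPM in MA9+EV and at 67.0, 65.6 and 67.6 CPM in MA9+SETDB1. Here too the MA9+SETDB1 libraries were level, while MA9+EV replicate 1 was the lowest by far, its log2 ratio to their mean being -1.42. By edgeR the difference was log2 2.23 (SE 0.36, adjusted p = 0.00211).

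**Figure D3:**
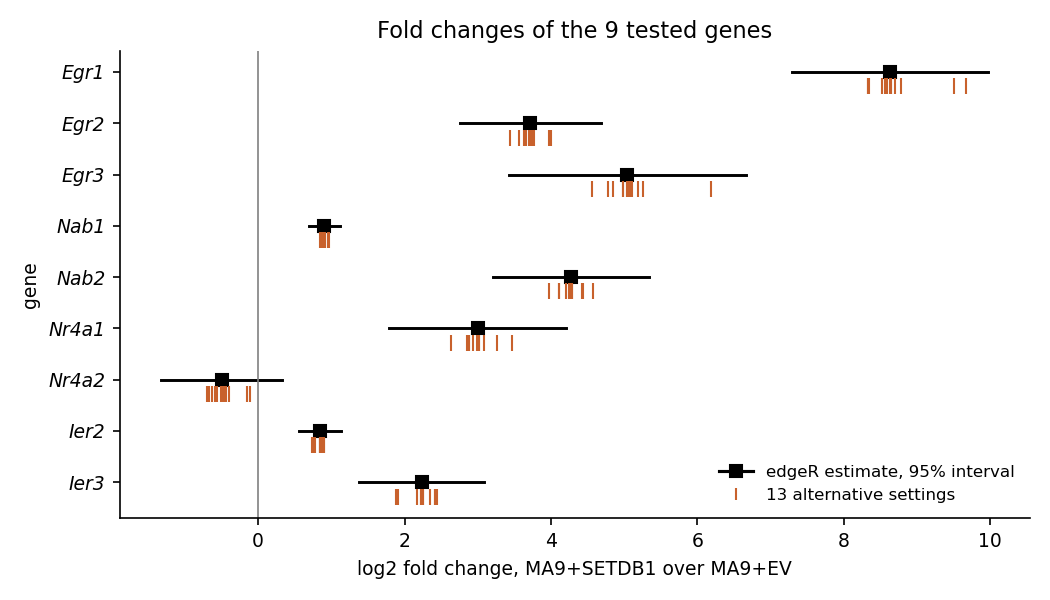
Log2 fold change of MA9+SETDB1 over MA9+EV for the 9 tested genes (squares, with 95% intervals from edgeR) and the values under 13 alternative settings (orange ticks). All settings lie above 0 for the 8 genes that rose, from 0.73 for Ier2 to 9.67 for Egr1, and Nr4a2 lies between -0.70 and -0.11.

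Within the arms, the genes that rose did not share 1 profile. In MA9+SETDB1, replicate 1 was below the mean of replicates 2 and 3 for Egr1 (log2 -0.49), Egr2 (-0.94), Egr3 (-0.75), Nab2 (-1.15) and Nr4a1 (-0.92). There it was nearly level with them for Nab1 (-0.10), Ier2 (-0.01) and Ier3 (0.01). In MA9+EV, replicate 1 was above the others for Egr1 (1.79) and Nr4a2 (0.86) and below them for Nab2 (-1.14), Nr4a1 (-1.56), Ier3 (-1.42) and Ier2 (-0.36). With both libraries numbered 1 left out, a setting added after the data had been seen, the same 8 genes passed, and the log2 fold change of Egr1 was 9.67.

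**Figure D4:**
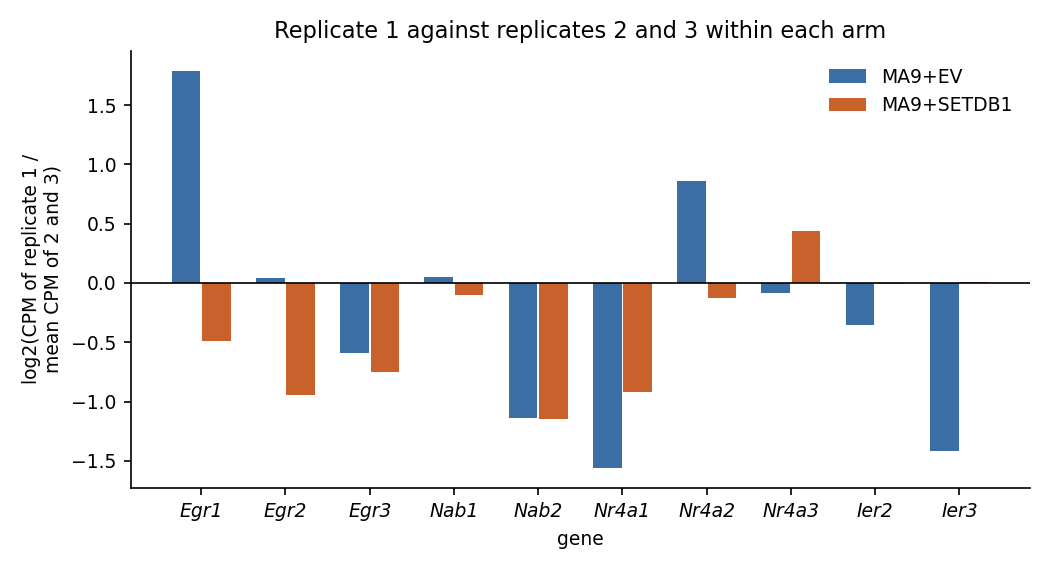
Log2 ratio of the CPM of replicate 1 to the mean CPM of replicates 2 and 3, within MA9+EV (blue) and MA9+SETDB1 (orange), for the 10 genes. The 2 arms deviate alike for Nab2 and Nr4a1 and in opposite directions for Egr1, and Nr4a3 and the MA9+EV values of Egr2 and Egr3 rest on 0 to 8 reads a library.

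Other immediate early genes moved in both directions, more of them upward. Of 37 genes of this kind, which exclude the 10 above, 31 could be tested, 20 rose and 5 fell, beside 27.4% and 26.2% of all tested genes. Their median log2 fold change was 1.88. With replicates 2 and 3 of each arm summed, 13 of 32 tested rose and 3 fell (40.6% and 9.38%, against 16.4% and 13.8% of all tested genes). Zfp36, for an mRNA decay factor, stood at 12.0 to 13.1 CPM in MA9+EV and 47.3 to 49.3 CPM in MA9+SETDB1 (log2 1.93, SE 0.11, adjusted p = 2.5e-05 by edgeR). Junb, for an AP-1 subunit, rose by log2 2.15 and Ier5, a relative of Ier2, by log2 2.38, from 11.9 to 16.5 CPM up to 52.5 to 88.8 CPM. Ppp1r15a, for the stress-response phosphatase subunit GADD34, rose by log2 2.70. Rgs1, for a regulator of G protein signals, went from 0.0413 to 0.581 CPM up to 20.6 to 32.4 CPM. Dusp6, for an ERK phosphatase, fell by 1.75 on the log2 scale (adjusted p = 0.000696 by edgeR, SE 0.22), from 69.1 to 84.2 CPM down to 18.9 to 31.1 CPM. Egr4, the remaining EGR family gene, had no count in any of the 6 libraries and was named after its values were seen, as were Jun and Myc, whose log2 fold changes were 0.00 (edgeR adjusted p = 0.997) and -0.23 (edgeR adjusted p = 0.252).

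**Figure D5:**
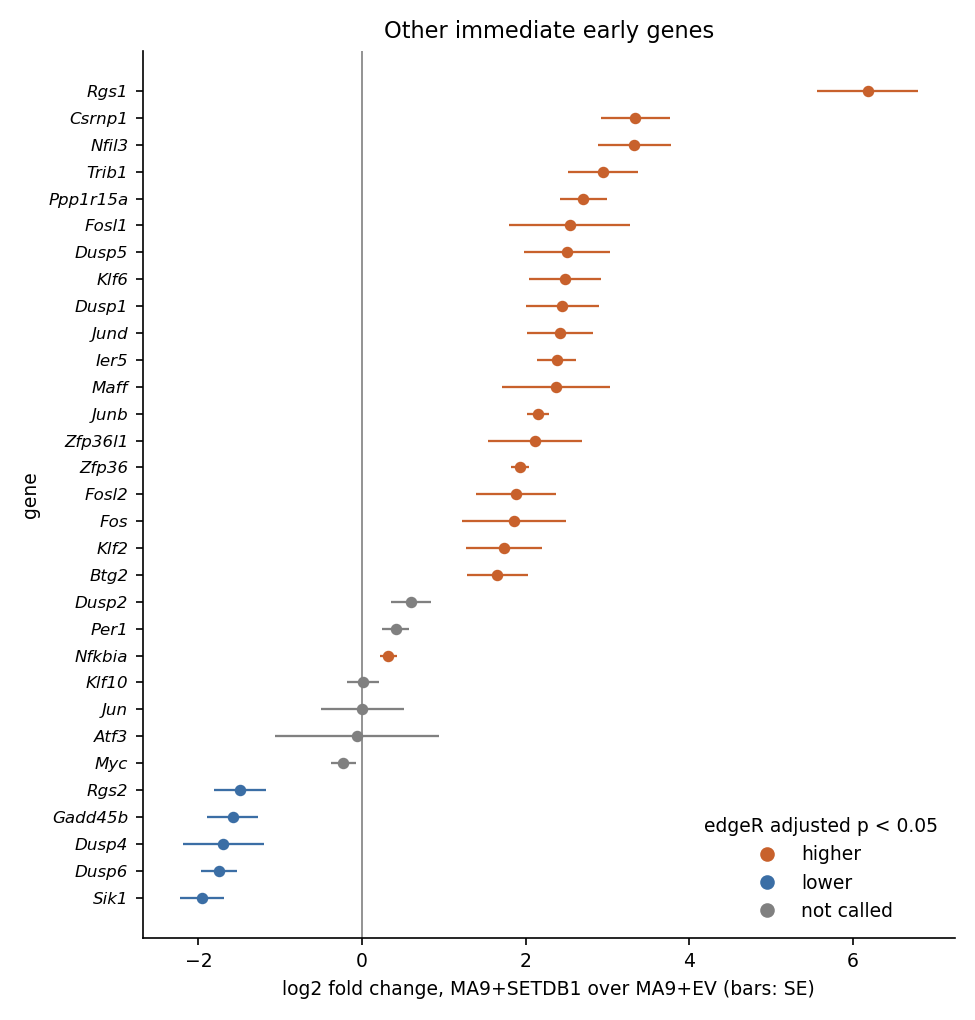
Log2 fold change with standard error of the 31 tested immediate early genes outside the 10, ordered by value, in orange where called higher (20), blue where called lower (5) and grey where not called (6). Rgs1 has the highest value and Sik1 the lowest.

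Genes for the signals and factors upstream were called about as often as all tested genes. Of 29 genes for proteins of the ERK cascade, for SRF with its partners and for CREB with its coactivators, 8 rose and 8 fell (27.6% each, beside 27.4% and 26.2% of all tested genes), with a median log2 fold change of 0.09. With both libraries numbered 1 left out, 16 rose and 11 fell, while 39.7% of all tested genes rose and 39.5% fell. With replicates 2 and 3 summed, 3 rose and 5 fell, beside 16.4% and 13.8% of all. Crem, for a CREB relative with activating and repressing forms, stood at 2.85 to 3.48 CPM in MA9+EV and 36.6 to 46.2 CPM in MA9+SETDB1 (log2 3.69, SE 0.17, adjusted p = 1.07e-05 by edgeR). Srf itself fell by 1.25 on the log2 scale (adjusted p = 0.000996 by edgeR, SE 0.17), from 118 to 167 CPM down to 50.5 to 63.8 CPM. Among the kinases, Braf fell by 1.13 on the log2 scale, and Rps6ka4, for the histone kinase MSK2, rose by log2 0.58.

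Known EGR target genes also went both ways. Of 12, 8 could be tested, of which 4 rose and 3 fell (all tested genes: 27.4% and 26.2%), with a median log2 fold change of 0.70. Id2, for an inhibitor of helix-loop-helix factors, rose by log2 4.29 (SE 0.32, edgeR adjusted p = 7.63e-05), from 5.89 to 13.3 CPM up to 159 to 184 CPM. Csf1, for the macrophage growth factor M-CSF, rose by log2 3.18, Icam1, for an adhesion molecule, by 2.18 and Tgfb1 by 1.44. F3, for tissue factor and a textbook EGR1 target, had 243 reads over MA9+EV and none over MA9+SETDB1, which makes it at least 63.6-fold lower when the arm without reads is set to 3.

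Genes for partners of NAB and NR4A proteins were also looked at. NAB2 is known to recruit CHD4 of the NuRD complex, and of 13 NuRD genes 3 rose and 3 fell, with a median log2 fold change of 0.09. These are 23.1% each way, near the 27.4% and 26.2% of all tested genes. Without both libraries numbered 1, 6 rose and 4 fell (46.2% and 30.8%, against 39.7% and 39.5% of all tested genes). Without MA9+SETDB1 replicate 1 alone 5 rose and 3 fell (38.5% and 23.1%, against 30.9% and 29.7%). With replicates 2 and 3 summed 2 rose and 0 fell (15.4% and 0%, against 16.4% and 13.8%). Chd3 rose by log2 3.37 (SE 0.61, edgeR adjusted p = 0.00335), from 2.31 to 11.7 CPM up to 65.5 to 126 CPM, Mbd2 by 1.39 and Gatad2b by 0.62. Hdac2, Rbbp4 and Mbd3 fell by 0.56, 0.47 and 0.42 on the log2 scale. Of the 3 retinoid X receptor genes, whose products pair with NR4A1 and NR4A2, Rxrg rose, with 1 read over MA9+EV and 399 over MA9+SETDB1, a 508-fold ratio after scaling (95% interval from counting alone, 90.6 to 20110). Rxra and Rxrb did not pass (log2 fold changes -1.36 and -0.21, edgeR adjusted p = 0.0787 and 0.216). Of the 3 RXR genes, 2 were called lower without MA9+SETDB1 replicate 1, 1 without MA9+EV replicate 1 and 2 without both. In the same settings 29.7%, 25.9% and 39.5% of all tested genes were called lower.

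Immediate early transcripts also respond to handling, and heat shock genes were read as a sign of it. Of 11 tested, 0 rose and 2 fell by edgeR (Bag3 by 1.11 and Hspd1 by 0.72 on the log2 scale). These are 0% and 18.2%, beside 27.4% and 26.2% of all tested genes. In addition, 1 was higher at an unadjusted p under 0.05 and 1 by DESeq2 (9.09%, against 24.2% of all tested genes). Next by p-value were Hspe1, Hsp90aa1, Hspa1b and Hspa1a, with log2 fold changes of 0.57, -0.33, 1.57 and 2.15. None of these was called (edgeR adjusted p = 0.0526, 0.106, 0.129 and 0.167). For Hspa1b all MA9+SETDB1 libraries were above all MA9+EV libraries, and for Hsp90aa1 all were below. The summed level of the 12 listed genes was 1210 to 2130 CPM in MA9+EV and 1160 to 1420 CPM in MA9+SETDB1. Hspa8 was uneven within MA9+EV, at 680 CPM in replicate 1 and 288 and 282 CPM in replicates 2 and 3, and less so within MA9+SETDB1, at 487 CPM in replicate 1 and 333 and 341 CPM in the others. Without both libraries numbered 1, 5 heat shock genes rose and 4 fell (45.5% and 36.4%, against 39.7% and 39.5% of all tested genes). Without MA9+EV replicate 1 alone 2 rose and 2 fell (18.2% each, against 27% and 25.9% of all tested genes). Without MA9+SETDB1 replicate 1 alone 1 rose and 2 fell (9.09% and 18.2%, against 30.9% and 29.7%). The part of handling in the 8 rises was not tested.

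Blood lineage markers moved with the arms as well. The counts of markers below stand beside 27.4% of all tested genes called higher and 26.2% called lower. All 9 tested mast cell and basophil markers rose, their summed level being 49.6 to 85.0 CPM in MA9+EV and 11100 to 11600 CPM in MA9+SETDB1, and 8 of 9 tested erythroid markers rose. The erythroid sum was 934 to 961 against 2180 to 2640 CPM, and without Tfrc, the tested marker that was not called, 6.98 to 8.16 against 1150 to 1380 CPM. All 5 tested primary granule markers fell (14400 to 16400 against 263 to 328 CPM), and of 8 monocyte and macrophage markers 2 rose and 6 fell (2450 to 4220 against 747 to 1650 CPM). The part of these lineage differences in the rise of the 8 genes was not tested. Of the T and NK cell markers 1 of 2 tested rose and 1 fell (24.2 to 30.9 against 25.3 to 50.2 CPM), with Cd3e and Klrb1c at 0 counts in all 6 libraries. Cd3g, which was not tested, had no read in MA9+EV and 4, 49 and 45 reads in MA9+SETDB1. The B cell markers Pax5 and Ms4a1 were at 0 counts in all 6 libraries, and the 5 B cell markers summed to at most 4.01 CPM. The 5 stromal markers summed to at most 0.416 CPM in any library.

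The genes nearest to Egr1 in pattern, by root mean square distance of centred log2(CPM + 0.5) over the 6 libraries, were Cd55 (0.327), Nrp1 (0.337), Ms4a2 (0.368), Heph (0.401) and Tent5c (0.452). Cd55, for a complement inhibitor on the cell surface, stood at 1.82, 0.166 and 0.0504 CPM in MA9+EV and at 192, 442 and 459 CPM in MA9+SETDB1. Its replicate 1 was the highest of MA9+EV and the lowest of MA9+SETDB1, as for Egr1. Nearest to Nr4a1 were Mir22hg (0.115), Cdkn1a (0.133), Atp6v1g1 (0.139), Samsn1 (0.140) and Btg1 (0.158). Cdkn1a, for the cell cycle inhibitor p21, stood at 53.0, 126 and 112 CPM in MA9+EV and at 394, 626 and 610.0 CPM in MA9+SETDB1. These distances include the difference between the 2 arms, which all 10 of these genes share in direction.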

How the data were processed

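The series holds 26 samples, of which 6 RNA-seq libraries had count files and 20 chromatin samples were not analysed here. The deposited values are whole-number read counts per gene, not normalized. The submitters' processing notes name GRCm38, STAR 2.6.0c and HTSeq 0.11.0 among other tools, without role, and no source used here gives the strand setting of the counting, which leaves overlapping genes uncertain. Summary lines (24.6% to 26.3% of entries) were left out. Gene symbols were looked up by identifier, leaving 67 of 54146 unmatched. Positions and promoter sequences are RefSeq's for GRCm38.p6.

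The whole table was filtered with filterByExpr, scaled with TMM and fitted with edgeR 4.0.16 (limma 3.58.1, R 4.3.3; quasi-likelihood F-test, Benjamini-Hochberg over 12986 genes, threshold 0.05). Standard errors were derived from the F statistic. The fit was tried on simulated counts with 200 genes changed and less spread between libraries than here. That trial does not measure its accuracy on these data. Alternatives were DESeq2 1.42.0, 2 other scalings, no filter, the replicate block, each library left out, and replicates 2 and 3 summed. Members and lists were chosen with earlier results of these data known, and the motifs after the member values were seen. Named were all members, up to 6 genes of smallest p per list (some of these are not reported here), and the 5 nearest in pattern to Egr1 and to Nr4a1. Intervals on edgeR differences include the spread between libraries, whereas the interval on the Rxrg ratio and the floors of 3 counts cover counting error only. The p-values measure the spread between libraries, which may be technical.

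Both arms use replicate numbers 1 to 3. Deviations from the arm means correlated between same-numbered libraries at 0.330, 0.295 and 0.279 across 9041 genes, each over 0.1. The main fit was nevertheless unpaired, and the replicate number entered only as a block in an alternative setting. Replicates 2 and 3 correlated as well across numbers (0.273 and 0.329), so only replicate 1 is matched by the values.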

Additional observations from a re-analysis of the deposited data

How the results depend on the processing

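Under 13 alternatives (12 planned, 1 added after seeing the data), the calls of all 9 tested genes of the set kept their direction and their side of the threshold, and 8 were higher and 0 lower in each. The highest adjusted p of a called gene was 0.0299, for Nr4a1 with replicates 2 and 3 summed, and the lowest of Nr4a2 was 0.186. With the replicate number as a block, 3791 genes were higher and 3761 lower, against 3554 and 3397 without it. The block changed no call of the set, and its log2 fold change of Egr1 was 8.70. With replicates 2 and 3 summed, calls fell to 2292 higher and 1928 lower over all genes, 13 and 3 for the other immediate early genes, 3 and 5 for the upstream regulators, and 0 lower for NuRD genes. With both libraries numbered 1 left out, 5314 genes were higher and 5285 lower, 16 upstream regulators and 6 NuRD genes were higher, 2 RXR genes were lower, and 5 heat shock genes were higher and 4 lower. With no filter and with DESeq2, 1 heat shock gene was higher. Leaving out a single library gave 2992 to 4231 genes higher and 2727 to 4063 lower, 3 to 5 NuRD genes higher, 0 to 2 RXR genes lower and 0 to 2 heat shock genes higher. The summed fit has fewer samples. The cause of the other shifts, among them the higher counts without the libraries numbered 1, was not tested. Egr3 and Nr4a3 are limited by depth.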
